A study of Ovis aries with 2 samples.

Results

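Immediate early response genes are transcribed within minutes of a signal, from factors that already sit in the cell. The 8 genes described here were chosen by name: FOS, FOSB, JUN, JUNB, EGR1, ATF3, IER2 and IER3. All 8 were among the 18161 genes measured. The choice rested on gene names and not on a threshold of expression, though earlier results of these data were known. They were followed across the cell clusters of sheep skin and between the libraries of straight and curly wool.

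The skin came from Hu sheep lambs at day 3 after birth and was taken from the side of the body. Skins of 3 lambs with straight wool were pooled into 1 library, and skins of 3 lambs with curly wool (waved, in the labels) into another. Both libraries combined a suspension of microdissected hair follicles, released with TrypLE, and a suspension of whole skin, digested with collagenase IV and then TrypLE, and the table does not say which suspension a cell came from. Single cells were captured on the 10× Genomics platform. All lambs were of the same breed and age, and wool type was the only labelled difference. A pool carries no record of which lamb a cell came from, so the wool types could be compared only as 1 library against 1, without a test or a p-value.

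FOS and FOSB encode proteins that pair with JUN or JUNB to form AP-1, a transcription factor that responds to growth factors, wounding and mechanical stress. EGR1 is a zinc finger transcription factor driven by the same kinase cascades, ATF3 is a stress-induced factor of the ATF family that can pair with JUN proteins, and IER2 and IER3 are early targets, of which IER3 is also linked to cell survival. These genes are known to respond in skin to wounding and in many tissues to the enzymes and warmth used to release single cells. The enzymes differed between the follicle and whole skin suspensions, so an effect of the digestion and a difference between cell types cannot be told apart here. The straight and curly pools were also prepared as separate libraries. Digestion, mixing of the suspensions and capture may therefore have differed along with wool type. An effect of such handling on the curly over straight ratios was not tested and cannot be separated from wool type.

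The straight library held 6452 cells and 57956122 UMIs (a UMI marks 1 captured RNA molecule), with a median of 7373.5 UMIs per cell. The curly library held 7585 cells and 77634565 UMIs, with a median of 7495. A total of 70 cell barcodes occurred in both libraries, none of them with identical counts. Levels are given as CPM, the UMIs of a gene scaled to a shared total over the cells summed (counts per 1000000), with exact Poisson 95% intervals where shown. All intervals cover counting error only and say nothing of the spread between lambs or of the handling of each library. The reads were tagged at one end of each transcript, so CPM is not a level per length, and the 8 genes are compared across cells rather than ranked against each other.

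Clustering without the 8 genes and their pathway lists gave 23 clusters, of which 20 had at least 25 cells in each library. Clusters were named for a cell class only where a list of its markers led, and otherwise by a leading gene. The classes used below are hair follicle stem cells (HFSC), dermal papilla cells (DPC), the inner root sheath (IRS) and the interfollicular epidermis (IFE). Summed, both HFSC-like clusters carried KRT15 (LOC101117682 in the table), at 8916 CPM in the straight and 8486 CPM in the curly library. LGR5 stood at 99.3 and 203 CPM in the same sum. KRT15 was among the leading genes of both clusters, and LGR5 among those of the LGR5-rich one only. The endothelial-like cluster carried PECAM1 at 1373 and 1366 CPM. A low-UMI cluster, with medians of 691.5 and 750.5 UMIs per cell, held 346 straight and 884 curly cells. It was kept, and the effect of leaving it out is given in the closing section.

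Over all cells of a library, 7 of the 8 genes had at least 13352 UMIs in each library and EGR1 had at most 265. FOS stood at 1756 CPM in the straight and 1401 CPM in the curly library. JUN reached 1297 and 1122 CPM. JUNB reached 1732 and 1404 CPM. The AP-1 genes were all a little higher in the straight library. FOSB stood at 230 CPM in the straight and 196 CPM in the curly library. ATF3 stood at 682 and 660 CPM. IER2 stood at 325 and 311 CPM. IER3, the early gene linked to cell survival, stood at 1321 and 1142 CPM. EGR1 had few UMIs, 250 UMIs in the straight and 265 UMIs in the curly library, or 4.31 and 3.41 CPM. For other members of its family the values were higher, though not per length, EGR2 at 42.8 and 36.6 CPM and EGR3 at 50.7 and 45.2 CPM.

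FOS, JUN, JUNB and IER3 were detected in most cells even at a shared low depth. After each cell was thinned to 2000 UMIs, which left out 1037 straight and 1533 curly cells, a UMI of FOS was found in 66.9% of straight and 65.7% of curly cells. JUNB was found in 77.7% and 70.0%, JUN in 69.4% and 65.0%, and IER3 in 66.1% and 61.5%. ATF3 was found in 43.4% and 42.3%, IER2 in 39.5% and 38.3%, FOSB in 30.2% and 26.5%, and EGR1 in 1.05% and 1.04%. Unthinned, the shares for FOS were 82.7% and 82.9%. The median thinned cell held 4 of the 8 genes in both libraries. A share of 2.36% of straight cells (exact Clopper-Pearson 95% interval 1.98% to 2.80%) and 4.64% of curly cells (4.13% to 5.20%) held none.

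RNA set free from broken cells adds UMIs to every droplet, and none of the clusters is known to lack these 8 genes. As a gauge, KRT27, a keratin of the inner root sheath, had a UMI in 2.29% of thinned straight and 14.8% of thinned curly endothelial-like cells, where unthinned depth had medians of 5306 and 3834 UMIs. Its level there was 14.5% of its all-cell level in the straight and 26.9% in the curly library. KRT71, another IRS keratin, had a UMI in 9.92% and 31.3% of the same thinned cells, at 22.1% and 18.9% of its all-cell level. Doublets, droplets that caught several cells, were not removed here. A filter on the highest doublet scores took 35 of 192 straight and 31 of 167 curly endothelial-like cells. The part of doublets in these keratin values was not tested. The shares of cells given above for EGR1 in both libraries and for FOSB in the curly library lie below that of KRT71. These shares alone are not read as expression. KRT71 stood at 1097 CPM over all curly cells and FOSB at 196 CPM, so the KRT71 share is not a matched limit for FOSB. For levels, the limit was the higher of the keratins' values within a library, 22.1% in straight and 26.9% in curly cells. Of the 8 genes, EGR1 aside, only ATF3 lay at or below the limit of its library in any of the 20 clusters compared. ATF3 stood at 17.7% of its all-cell level in the DPC-like cells of the straight library and 9.22% in those of the curly library. In the COL3A1-rich dermal cluster of the curly library it stood at 26.1%. These ATF3 values are read as background and not as expression.

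The clusters differed from each other in these genes, and each gene had its own order. All 8 genes ranged over 2-fold or more of CPM + 5 across the 20 clusters in both libraries, as did 93.9% of 11475 genes. The SD of log2(CPM + 5) over clusters was above that of 77.0% of these genes in the straight and 80.1% in the curly library for FOS, 79.0% and a higher share for FOSB, 69.9% and 79.2% for JUN, and 64.3% and 71.8% for JUNB. It was above that of 65.4% and 74.4% for IER3, 41.7% and 57.0% for IER2, and 27.3% and 42.1% for EGR1. FOS was highest in the sweat gland luminal-like cells, at 3307 CPM in the straight and 5292 CPM in the curly library, and lowest in the IRS-like cells, at 438 and 499 CPM. Of the 19 neighbours in the straight order of FOS, 11 had intervals that overlapped, and 10 in the curly order, so that much of the middle of the order is not resolved even against counting error. FOSB was highest in straight immune-like cells, at 683 CPM, and in curly sweat gland luminal-like cells, at 947 CPM, and lowest in IRS-like cells, at 65.8 and 57.4 CPM. Intervals overlapped for 16 and 13 of its 19 neighbours.

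JUN took its highest level in the COL3A1-rich dermal cluster of the straight library, at 2612 CPM, and in the sweat gland luminal-like cells of the curly library, at 4133 CPM. Its lowest levels were 490 CPM in straight IRS-like cells and 420 CPM in curly LGR5-rich HFSC-like cells. JUNB was highest in the DES-rich contractile-like cells of the straight library, at 3176 CPM, and in the GEM-rich HFSC-like cells of the curly library, at 4100 CPM. Its lowest levels were in the same clusters as those of JUN, 780 CPM in straight IRS-like and 680 CPM in curly LGR5-rich HFSC-like cells. Intervals overlapped between 12 and 9 of the 19 neighbours of JUN and 15 and 9 of those of JUNB.

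ATF3 was high in several epithelial clusters and low in the DPC-like and COL3A1-rich dermal clusters. Its highest level was in the GEM-rich HFSC-like cells, at 1675 CPM in the straight and 2280 CPM in the curly library. The FGFBP1-rich cluster held 1423 and 1437 CPM, and the KRT79-rich cluster 1027 and 1725 CPM. The COL3A1-rich dermal cluster held 182 and 173 CPM and the DPC-like cells 121 and 60.9 CPM. JUN in the same DPC-like cells stood at 2322 and 1954 CPM, so low ATF3 was not shared by JUN. Across the 20 clusters the SD of log2(CPM + 5) of ATF3 was 0.90 in straight and 1.25 in curly cells, above that of 83.2% and 93.0% of the 11475 genes with at least 100 UMIs in each library. The median gene had an SD of 0.51 and 0.53.

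The early targets were spread differently. IER2 varied least of the 7, with an SD of 0.47 and 0.57, and its highest levels were 776 CPM in straight DES-rich contractile-like cells and 785 CPM in curly endothelial-like cells. Its lowest were 177 CPM in straight ACTG2-rich contractile-like and 205 CPM in curly LGR5-rich HFSC-like cells, and 16 and 17 of its 19 neighbours had overlapping intervals. IER3 was highest in the KLK6-rich cluster of the straight library, at 2179 CPM, and in the LCN2-rich cluster of the curly library, at 2860 CPM. Straight IRS-like cells, lowest in FOS, FOSB, JUN and JUNB, held 2016 CPM of IER3. The lowest levels of IER3 were 463 CPM in straight endothelial-like and 385 CPM in the DPC-like cells of the curly library, and 12 and 10 of its neighbours overlapped. EGR1 ranged from 0 to 9.87 CPM, and all 19 neighbours overlapped in both libraries.

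**Figure D1:**
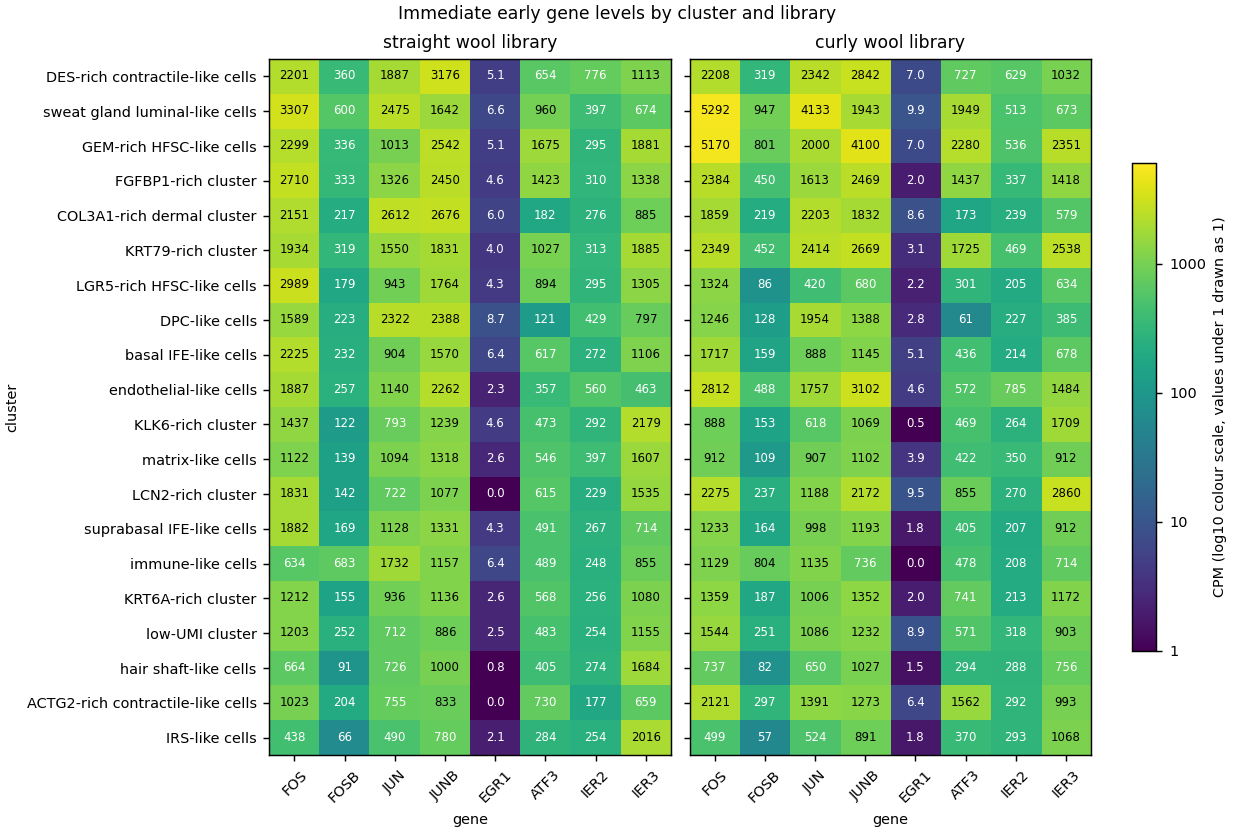
Level of each of the 8 genes in CPM (numbers and log10 colour scale) in the 20 clusters compared, straight library on the left and curly on the right, clusters ordered by the summed level in the straight library. ATF3 is low in the dermal rows, at 121 and 60.9 CPM in DPC-like cells, and EGR1 does not pass 9.87 CPM in any cluster.

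The order of the clusters was partly shared by the libraries. Across the 20 clusters, Pearson's r between straight and curly log2(CPM + 5) was 0.88 for FOSB, 0.87 for ATF3, 0.75 for JUN, 0.73 for FOS, 0.65 for IER2, 0.63 for JUNB and 0.45 for IER3, while EGR1 had -0.12. These are descriptions over 20 points that share 2 libraries and 1 clustering.

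Between the libraries, all 8 genes were lower in curly than in straight cells when all cells were summed, and none by 2-fold. With all genes scaled to the same total, the median gene also lay lower in the curly library, by -0.18 on the log2 scale, over 13196 genes with at least 100 UMIs. The median of the 8 genes was -0.22. Of all genes, 69.9% were lower in curly and 10.2% differed by 2-fold or more in either direction. FOS had a log2 ratio of curly over straight of -0.33 (-0.34 to -0.31). JUNB had -0.30 (-0.31 to -0.29), and EGR1 -0.34 (-0.59 to -0.08). FOSB had -0.24, JUN -0.21 and IER3 -0.21. ATF3 had -0.05 and IER2 -0.06, and both turned to higher in curly, at 0.14 and 0.12, once the median of all genes was subtracted. The summed 8 genes made up 7346 CPM in the straight and 6239 CPM in the curly library.

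The sum over all cells hid opposite differences within clusters. With each of the 20 clusters given the same weight, the mean log2 ratio was 0.09 for FOS, 0.13 for FOSB and 0.14 for JUN. It was 0.07 for ATF3 and 0.02 for IER2, and only JUNB (-0.00), EGR1 (-0.19) and IER3 (-0.14) stayed below 0. EGR1 had UMIs in both libraries in only 17 of the clusters, and its mean covers those alone. For the 7 genes other than EGR1 there were 140 pairs of gene and cluster. The interval lay below 0 in 52 pairs, above 0 in 60 and across 0 in 28. A 2-fold difference was reached in 15 pairs, 10.7% of them, 8 lower and 7 higher in curly, against 6.78% of all 83380 gene and cluster pairs. FOS lay lower with its interval in 8 clusters and higher in 11, JUN in 8 and 10, JUNB in 9 and 9, IER3 in 9 and 8, IER2 in 8 and 6, ATF3 in 6 and 8, and FOSB in 4 and 8.

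**Figure D2:**
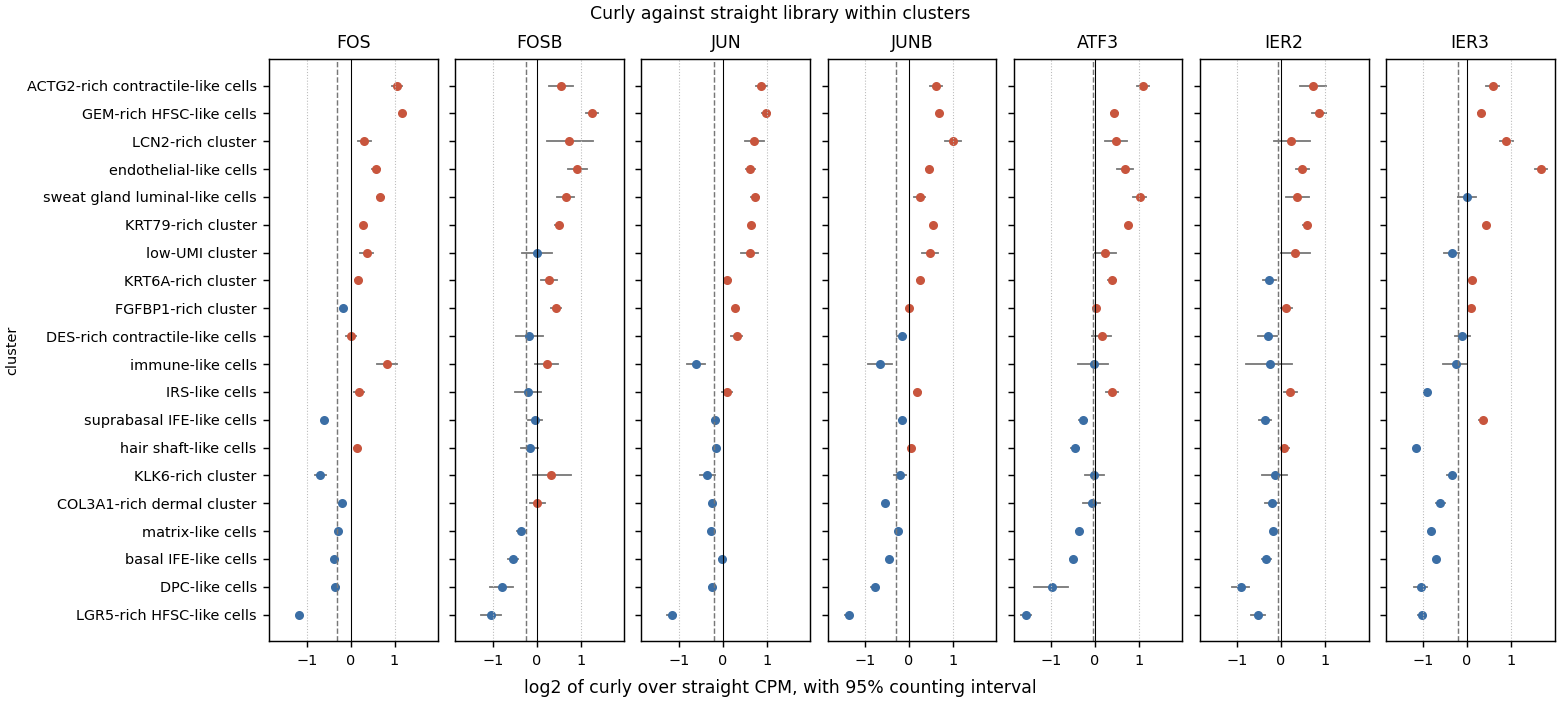
Log2 ratio of curly over straight CPM within each of the 20 clusters, with the 95% counting interval as a horizontal line, for the 7 genes other than EGR1. Red points are higher in curly and blue points lower, the dashed line is the ratio over all cells, dotted lines mark 2-fold, and the LGR5-rich and GEM-rich HFSC-like rows lie on opposite sides of 0 for all 7 genes.

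A contrast stood inside the hair follicle stem cell class. In the LGR5-rich HFSC-like cells (340 straight, 636 curly), all 7 genes with at least 100 UMIs were lower in curly and 6 of them by 2-fold or more, where 6.99% of the genes tested in this cluster differed that far in either direction. FOS stood at 2989 CPM in the straight and 1324 CPM in the curly library, a log2 ratio of -1.17 (-1.23 to -1.12). FOSB stood at 179 and 86.3 CPM (-1.05). JUN stood at 943 and 420 CPM (-1.17). The AP-1 genes thus differed by nearly the same ratio, and JUNB by a larger one, with 1764 and 680 CPM (-1.38). ATF3 had the largest difference, with 894 and 301 CPM, a log2 ratio of -1.57 (-1.68 to -1.46). IER3 stood at 1305 and 634 CPM (-1.04). IER2 differed least, with 295 and 205 CPM (-0.52). Of the 4763 genes tested there, 72.1% were lower in curly, with a median of -0.22. The median of the 7 genes was -1.17, and with the all-gene median subtracted 2 of the 7 still passed 2-fold. The same 2 of 7 is the count when per-cell CPM values were averaged in place of summed UMIs.

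In the GEM-rich HFSC-like cells (207 straight, 162 curly), the same 7 genes were all higher in curly, 2 of them by 2-fold or more, with 7.49% of all genes tested that far apart. FOS stood at 2299 CPM in the straight and 5170 CPM in the curly library, a log2 ratio of 1.17 (1.11 to 1.22). FOSB stood at 336 and 801 CPM (1.25). JUN stood at 1013 and 2000 CPM (0.98). Here FOS, FOSB and JUN differed more than the other members. JUNB stood at 2542 and 4100 CPM (0.69), and IER2 at 295 and 536 CPM (0.86). ATF3 stood at 1675 and 2280 CPM (0.44), and IER3 at 1881 and 2351 CPM (0.32). The median of the 7 was 0.86, against -0.12 for all 2976 genes tested, of which 61.6% were lower in curly. Summed heat shock genes, another stress response, differed little in either cluster, with 6522 and 6030 CPM in the LGR5-rich and 10435 and 10875 CPM in the GEM-rich cells.

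Single cells showed the same contrast. Of LGR5-rich cells thinned to 2000 UMIs, 36.6% of 246 straight and 13.9% of 570 curly cells held a UMI of at least 5 of the 8 genes (Clopper-Pearson 30.6% to 42.9% for straight). Of the GEM-rich cells, 56.0% of 200 straight and 90.1% of 161 curly cells did (48.8% to 63.0% and 84.4% to 94.2%). Unthinned, the shares were 43.5% and 29.4% in LGR5-rich and 92.8% and 100% in GEM-rich cells. A UMI of FOS was found in 69.1% of thinned straight and 42.1% of thinned curly LGR5-rich cells. ATF3 was found in 41.9% and 17.2% of LGR5-rich and in 75.0% and 91.3% of GEM-rich cells, the 17.2% lying below the background share of KRT71 in curly cells. Levels within a cluster were skewed: the median straight LGR5-rich cell had 698 CPM of FOS, far under the summed 2989 CPM, and the median curly GEM-rich cell 3757 CPM.

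**Figure D3:**
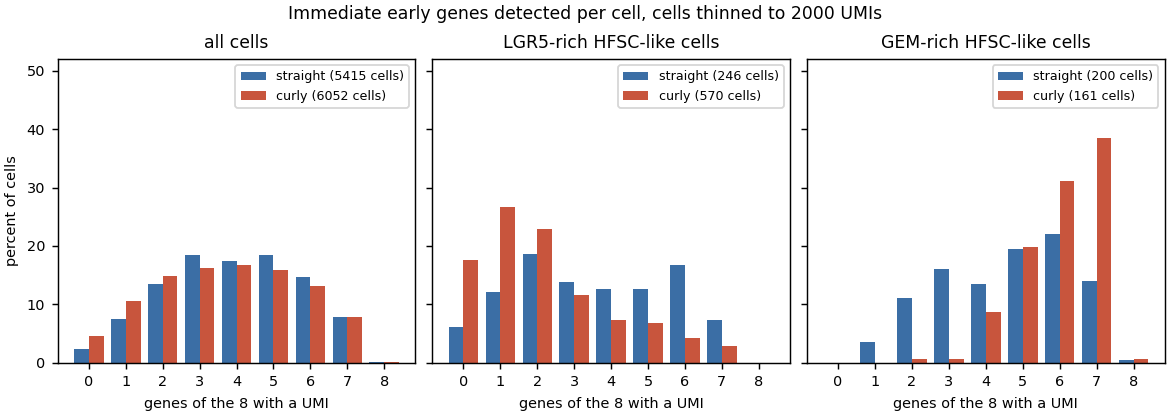
Percent of cells (vertical axis) by the number of the 8 genes with a UMI in a cell thinned to 2000 UMIs (horizontal axis), straight in blue and curly in red, for all cells and both HFSC-like clusters. Curly LGR5-rich cells peak at 1 gene and curly GEM-rich cells at 7, while the libraries are close to each other over all cells.

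How the HFSC-like cells were divided mattered to this contrast. GEM, for which the second cluster is named, encodes a small GTPase that is itself inducible, and the cluster held 207 of 547 HFSC-like cells in the straight library and 162 of 798 in the curly library. The 8 genes were kept out of the clustering, while other genes that vary with them were not, and whether those set the division was not tested. With both clusters summed, no member passed 2-fold, where 7.29% of all genes did. FOS was then at 2633 CPM in the straight and 2331 CPM in the curly library (-0.18), JUN at 979 and 833 (-0.23), JUNB at 2166 and 1575 (-0.46), ATF3 at 1297 and 819 (-0.66) and IER3 at 1602 and 1084 (-0.56). IER2 had 295 and 292 CPM and FOSB 260 and 273 CPM, and both intervals held 0. The median over all genes was -0.14, and IER2 turned to higher in curly with that subtracted.

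Cells chosen by 2 markers alone, at least 1 UMI of LGR5 and at least 5 of KRT15, were compared as well. This choice took 369 straight and 607 curly cells, and 51.5% of the straight and 75.6% of the curly ones lay in the HFSC-like clusters. FOS stood at 2600 and 1877 CPM (-0.47), JUN at 1117 and 819 CPM (-0.45), JUNB at 1988 and 1448 CPM (-0.46) and ATF3 at 938 and 635 CPM (-0.56). IER3 was slightly higher in curly cells chosen this way, at 1090 and 1172 CPM (0.10, 0.04 to 0.17). The summed 8 genes had a log2 ratio of -0.37 by the markers and -0.36 over both clusters. FOS, JUN, JUNB and ATF3 were thus lower in curly under all these choices except the GEM-rich cluster alone. The 2-fold differences did not hold. The all-gene median was -0.12 by the markers and -0.14 over both clusters. FOS over both clusters, at -0.18 (-0.21 to -0.14), had an interval that reached the all-gene median there. The GEM-rich cluster supplied 37.8% of the summed cells in the straight library and 20.3% in the curly library. The sum was not corrected for this imbalance.

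**Figure D4:**
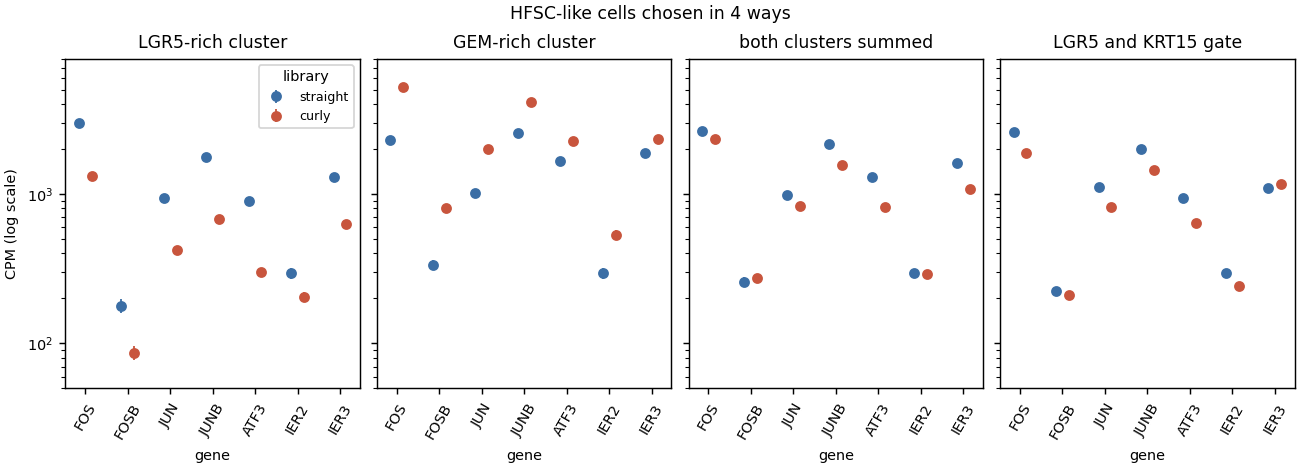
Level in CPM (log scale) of the 7 genes other than EGR1 in HFSC-like cells, straight in blue and curly in red, for each HFSC-like cluster, for both summed, and for cells chosen by LGR5 and KRT15. Poisson 95% intervals, drawn in the first 3 panels, are mostly smaller than the points, and the libraries lie far apart in the first 2 panels and close in the others.

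In matrix-like, hair shaft-like and IRS-like cells IER3 had the largest difference of the 7 genes, lower in curly each time. Matrix-like cells, the dividing cells that form the wool fibre, had all 7 genes lower in curly, with a median of -0.30 and none past 2-fold (2.84% of all genes were). FOS stood at 1122 and 912 CPM there, and IER3 at 1607 and 912 CPM (-0.82). Hair shaft-like cells held 1684 CPM of IER3 in straight and 756 CPM in curly cells, a log2 ratio of -1.16 (-1.21 to -1.10) and the only 1 of their 7 genes past 2-fold (background 4.11%). ATF3 (-0.46) and JUN (-0.16) were also lower in the same cells, FOSB (-0.16) and JUNB (0.04) had intervals that held 0, and FOS was higher, at 664 and 737 CPM (0.15). IRS-like cells also had less IER3 in curly, at 2016 and 1068 CPM (-0.92), while FOS (438 and 499 CPM), JUNB (780 and 891 CPM) and ATF3 (284 and 370 CPM) were slightly higher, and 0 of 7 passed 2-fold (background 4.33%). In the KRT6A-rich cluster 6 of 7 genes were higher in curly, with a median of 0.17 and none past 2-fold (background 6.42%). Of all genes tested, 60.3% were lower in curly in matrix-like, 48.7% in hair shaft-like, 74.6% in IRS-like and 74.5% in KRT6A-rich cells. The all-gene medians were -0.07, 0.01, -0.24 and -0.26 in the same order.

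The DPC-like cells, which signal to the matrix from the base of the follicle, had all 7 genes lower in curly, ATF3 at its background level among them. Their median was -0.80, against -0.10 for all genes, and 1 passed 2-fold where 12.4% of all genes did. JUNB stood at 2388 CPM in the straight and 1388 CPM in the curly library (-0.78, -0.86 to -0.71). IER2 stood at 429 and 227 CPM (-0.92). IER3, the gene past 2-fold, stood at 797 and 385 CPM (-1.05, -1.20 to -0.90). FOS and JUN differed less, FOS with 1589 and 1246 CPM (-0.35) and JUN with 2322 and 1954 CPM (-0.25). The COL3A1-rich dermal cluster had 6 of 7 lower, none past 2-fold (background 5.08%), with JUNB at 2676 and 1832 CPM (-0.55). ATF3, at background in the curly library there, turned to higher with the median of all genes subtracted. Of all genes tested, 58.0% were lower in DPC-like cells and 61.6% in the COL3A1-rich dermal cluster, where the median was -0.10.

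The basal IFE-like cells and the KRT79-rich cluster went opposite ways. The KRT79-rich, FGFBP1-rich and KLK6-rich clusters described here took no class name and are not placed in the epidermis. Basal IFE-like cells, which renew the epidermis, had all 7 genes lower in curly, with a median of -0.45 and none past 2-fold (background 5.98%). FOS stood at 2225 and 1717 CPM (-0.37) and IER3 at 1106 and 678 CPM (-0.71), while JUN (904 and 888 CPM) had an interval that held 0 and turned to higher under both other scalings. The KRT79-rich cluster had all 7 genes higher in curly, with a median of 0.54 against -0.24 for all genes, none past 2-fold (background 8.36%). ATF3 had the largest difference there, with 1027 and 1725 CPM (0.75, 0.71 to 0.79), and JUN stood at 1550 and 2414 CPM (0.64). Suprabasal IFE-like cells had 6 of 7 lower and none past 2-fold (background 9.91%), with FOS at 1882 and 1233 CPM (-0.61) and IER3 higher, at 714 and 912 CPM (0.35). FOSB there turned to higher with the median of all genes subtracted. The FGFBP1-rich cluster had 6 of 7 higher by a median of 0.08, with none past 2-fold (background 4.66%). The KLK6-rich cluster had 6 of 7 lower by a median of -0.21, with none past 2-fold (background 12.7%), ATF3 turning to higher with the median subtracted. The share of all genes lower in curly was 68.4% in basal, 73.4% in KRT79-rich and 57.1% in suprabasal cells. It was 63.8% in the FGFBP1-rich and 55.0% in the KLK6-rich cluster. The all-gene medians were -0.16 in basal and -0.07 in suprabasal cells, -0.12 in the FGFBP1-rich and -0.06 in the KLK6-rich cluster.

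Vessel, contractile and gland cells were mostly higher in curly. Endothelial-like cells had all 7 genes higher, with a median of 0.62 against -0.01 for all genes, and 1 past 2-fold (background 6.62%). That gene was IER3, with 463 CPM in the straight and 1484 CPM in the curly library, a log2 ratio of 1.68 (1.54 to 1.82) and the largest among the 140 pairs. FOS stood at 1887 and 2812 CPM (0.58) and JUNB at 2262 and 3102 CPM (0.46) in these cells. The ACTG2-rich contractile-like cells also had all 7 higher, 2 of them past 2-fold (background 11.5%): FOS with 1023 and 2121 CPM (1.05) and ATF3 with 730 and 1562 CPM (1.10). Only 85 straight cells stood behind these values. The DES-rich contractile-like cells, with 87 straight and 164 curly cells, were split, 4 lower and 3 higher and none past 2-fold (background 10.3%). FOS stood at 2201 and 2208 CPM and JUNB at 3176 and 2842 CPM there. Lower in curly were 50.5% of all genes tested in endothelial-like, 43.6% in ACTG2-rich and 59.3% in DES-rich cells.

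The sweat gland luminal-like cells had 6 of 7 genes higher in curly and 1 past 2-fold (background 8.4%). ATF3 stood at 960 and 1949 CPM (1.02, 0.87 to 1.17), FOS at 3307 and 5292 CPM (0.68) and JUN at 2475 and 4133 CPM (0.74), while IER3 stood at 674 and 673 CPM. Summed heat shock genes in the same cells were at 8702 and 13949 CPM (0.68), and their part in the result was not tested. The LCN2-rich cluster, with only 26 straight cells, had all 7 higher and JUNB past 2-fold (background 6.38%), at 1077 and 2172 CPM (1.01). Immune-like cells had 5 of 7 lower and none past 2-fold (background 8.91%), with FOS higher, at 634 and 1129 CPM (0.83), and JUN lower, at 1732 and 1135 CPM (-0.61). Their 74 curly cells had a median of 1721 UMIs against 3327 in the 283 straight cells. ATF3 there turned to higher with the median of all genes subtracted. In the low-UMI cluster 5 of 7 were higher, none past 2-fold (background 5.09%). Of all genes tested, 48.7% were lower in sweat gland luminal-like, 55.4% in LCN2-rich, 52.9% in immune-like and 56.9% in low-UMI cells.

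Within a cluster, the genes varied together from cell to cell. Spearman coefficients were taken over cells thinned to 2000 UMIs, within 1 cluster and 1 library at a time, for genes with a UMI in at least 20% of cells. Over the 30 combinations of cluster and library with at least 100 such cells, the median pair of members ranged from 0.13 to 0.40 and had a median of 0.31. Members with all other genes had medians between -0.02 and 0.01. In 28 of the 30 the median pair exceeded the 95th percentile of members with other genes, and the exceptions were straight IRS-like and curly KLK6-rich cells. The cells of a combination share 1 library and 1 total, and the coefficients are given as descriptions.

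FOS and JUNB were the closest pair, with a median coefficient of 0.56 over the 30 combinations and the highest single value, 0.78, in straight LGR5-rich HFSC-like cells. JUN with JUNB had 0.52 and FOS with JUN 0.51, so the 3 abundant AP-1 genes led the list of 21 pairs. ATF3 came next, with 0.44 for JUN and 0.42 for JUNB over the 27 combinations in which it was detected often enough. The weakest pairs were FOSB with IER2 and IER2 with IER3, both at 0.18, and FOSB with IER3 at 0.19. These FOSB pairs covered 24 combinations. FOSB and IER2 were also found in fewer thinned cells than FOS, JUN and JUNB, and an effect of detection on this ranking was not tested. ATF3 left the group in straight DPC-like cells, where its coefficient was -0.14 with FOS and -0.08 with JUNB, at levels read above as background.

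**Figure D5:**
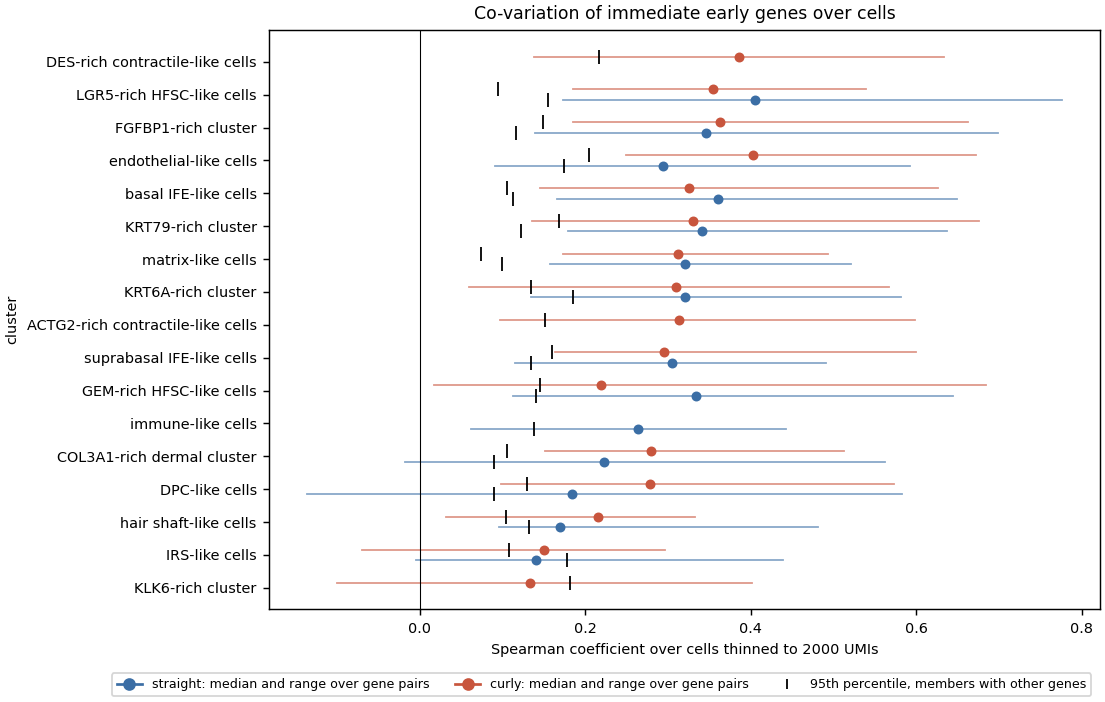
Spearman coefficients over cells thinned to 2000 UMIs, as the median (point) and range (line) over pairs of the 8 genes in each cluster and library, straight in blue and curly in red. The black tick is the 95th percentile of the coefficients of these genes with all other genes, and it lies under the median point in 28 of 30 cases.

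For 4 members, FOS, JUN, JUNB and IER2, the genes most like them across clusters included other members. Likeness was Pearson's r of log2(CPM + 5) over 46 values, the 23 clusters in both libraries. FOS was most like PNRC1 (0.82), JUNB (0.78) and JUN (0.76). FOSB was most like BRD2 (0.85), LMNA (0.84) and BTG2 (0.83). JUN was most like JUNB (0.78), EIF4A2 (0.76) and FOS (0.76). JUNB was most like SERTAD1 (0.84), GADD45B (0.80) and FOS (0.78). ATF3 was most like TUBB4B (0.78), NR4A2 (0.78) and KLF10 (0.77), and IER2 was most like RHOB, JUNB (both 0.77) and SERTAD1 (0.76). IER3 was most like NUDT4 (0.74), CISD2 (0.72) and BZW1 (0.71), and EGR1, with few UMIs, was most like NANOS1 (0.68), GORASP1 (0.66) and RCBTB2 (0.65).

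The wider pathway was read from lists of related genes, chosen with earlier results of these data known. Of 76 genes in the lists of AP-1 partners, other early transcription factors, feedback factors, secreted and other targets, and upstream kinases, 71 had at least 100 UMIs over all cells. Of these, 56 were lower in curly and 15 higher, with a median of -0.25 against -0.18 for all genes (69.9% of all genes were lower). In LGR5-rich HFSC-like cells 42 of 44 were lower, 15 of them past 2-fold, with a median of -0.81 against -0.22 for all genes, of which 72.1% were lower and 4.64% lower by 2-fold. In GEM-rich cells 27 of 46 were higher and 19 lower, with a median of 0.06 against -0.12 for all genes, of which 61.6% were lower.

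Among AP-1 partners, ATF4, the effector of the integrated stress response, stood at 484 CPM in the straight and 441 CPM in the curly library (-0.14). JUND, the JUN family member that is not strongly inducible, was higher in curly, at 171 and 235 CPM (0.46, 0.42 to 0.49). BATF3 had the lowest ratio of the list, with 2.54 and 1.51 CPM (-0.75). In the list 5 of 9 genes were lower, against 69.9% of all genes. Of other early transcription factors 13 of 16 were lower: KLF6 stood at 354 and 277 CPM (-0.36), KLF4 at 273 and 258 CPM (-0.08) and MYC at 175 and 124 CPM (-0.50). NR4A3 had the lowest ratio (-0.64) and EGR4 the highest (0.24, -0.16 to 0.65).

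Feedback genes end the response by dephosphorylating kinases or degrading early mRNAs. Of these, 15 of 17 were lower in curly, with a median of -0.53, against 69.9% and -0.18 for all genes. DUSP1, a phosphatase that switches off MAP kinases, was an exception at 655 and 713 CPM (0.12), and DUSP2 had the highest ratio (0.62). ZFP36L1, which binds AU-rich mRNAs for decay, stood at 506 and 323 CPM (-0.65), and BTG1 at 358 and 325 CPM (-0.14). SPRY4 had the lowest ratio, with 4.78 and 2.19 CPM (-1.13, -1.41 to -0.85). It was the 1 gene of the list past 2-fold, where 6.91% of all genes were lower that far. In the LGR5-rich HFSC-like cells DUSP1 stood at 671 and 479 CPM (-0.49) and in the GEM-rich cells at 586 and 1434 CPM (1.29), opposite ways as for FOS. ZFP36L1 was lower in curly in both, at 513 and 224 CPM (-1.20) and at 1075 and 800 CPM (-0.43).

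Of secreted and other early targets 15 of 18 were lower, against 69.9% of all genes. RHOB, a small GTPase, stood at 518 and 459 CPM (-0.17), the growth arrest gene GADD45B at 329 and 285 CPM (-0.20) and SERTAD1 at 331 and 279 CPM (-0.25). PTGS2, the inducible cyclooxygenase, had the lowest ratio, with 58.1 and 34.1 CPM (-0.77), and EREG, an EGF receptor ligand, the highest, with 7.26 and 8.69 CPM (0.26). Upstream kinases and factors were rarer and closer to each other, with 9 of 12 lower. Their median was -0.12, against -0.18 for all genes. EGFR stood at 31.3 and 31.7 CPM and ERBB2 at 27.0 and 26.7 CPM, both with ratio intervals that held 0. MAPK3 had the highest ratio (0.12) and ELK3 the lowest (-0.82, -1.01 to -0.62).

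Heat shock and stress genes, a separate response to stress, were compared alongside. Of 13 that were measured, 8 were lower in curly, with a median of -0.13, against 69.9% and -0.18 for all genes. Their sum was 8507 CPM in the straight and 8825 CPM in the curly library. HSPB1 stood at 2344 and 3021 CPM (0.37), HSP90AA1 at 1934 and 1601 CPM (-0.27) and HSP90AB1 at 1824 and 1663 CPM (-0.13). HSPA1A, the classical inducible chaperone, had only 1.95 and 3.53 CPM (0.86) and DNAJA1 the lowest ratio (-0.62).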

How the data were processed

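Reads of the straight and curly libraries (57956122 and 77634565 UMIs) were counted by the authors with Cell Ranger (3.0.2 in the submitters' processing notes) against Oar_rambouillet_v1.0. The values the authors deposited are natural log values, ln(1 + x), where x is the UMI count of a gene divided by the cell's total and multiplied by 10000, for 18161 genes in 14037 cells. This normalization was not stated in the sources used here and was read from the values. The series description gives 15830 cells, and of the deposited 14037 all had at least 200 genes. Counts had been assumed in planning, so UMIs were calculated back, and 100% of the 28552149 values above 0 were whole within 0.01.

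Anchor integration of the libraries (Seurat 5.3.0, R 4.3.3) used 2000 variable genes without the members, their lists and heat shock genes, with 30 dimensions and resolution 0.4. A cluster took the class with the highest mean log2 marker ratio if it was at least 1.5 with at least 3 markers in at least 10% of cells and no other class led its 10 leading genes. These limits were set after the data were seen. Doublets were not removed in the main values. UMIs summed per cluster and library gave CPM, with exact Poisson intervals, and ratios with exact intervals from the binomial split (Python 3.11.15, numpy 2.4.6, scipy 1.17.1), checked on simulated data. Ratios with fewer than 100 UMIs were not counted, and clusters under 25 cells in a library were not compared. In counts over genes, 0.5 UMI stood in for 0.

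Genes named are the 8 members, from each list the 3 with most UMIs and those with the highest and lowest ratio, and for each member the 3 most alike. Some genes this rule names are not reported here. EGR2, EGR3, GEM, KRT27 and KRT71 were added after their values were seen. Members and lists were chosen with earlier results of these data known. Alternatives were other clusterings, cell filters, scalings, totals, depths and minimums.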

Additional observations from a re-analysis of the deposited data

Results flagged for a closer look

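Members went opposite ways in clusters that carry the same class name, with counting intervals on opposite sides of 0. The difference between the clusters was not tested, since each value compares 1 library with 1 library. In LGR5-rich against GEM-rich HFSC-like cells the log2 ratio of curly over straight was -1.17 and 1.17 for FOS, -1.05 and 1.25 for FOSB, -1.17 and 0.98 for JUN and -1.38 and 0.69 for JUNB. It was -1.57 and 0.44 for ATF3, -0.52 and 0.86 for IER2, -1.04 and 0.32 for IER3, and -1.20 and 0.78 for the summed members. In ACTG2-rich against DES-rich contractile-like cells it was 0.61 and -0.16 for JUNB and 0.72 and -0.30 for IER2. The leading genes of these contractile-like clusters differed, with MIA and CNN1 in the first and RGS5 and PLN in the second. Their shared class name need not mean the same cell type.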

How the results depend on the processing

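All 8 genes stayed lower in curly over all cells under 5 alternatives, including the removal of the low-UMI cluster, which was chosen after seeing the data. With the median of all genes subtracted 6 were lower, ATF3 (0.14) and IER2 (0.12) turning to higher. With clusters weighted equally 3 were lower, among them EGR1 over only 17 clusters. FOS (0.094), FOSB (0.13), JUN (0.14), ATF3 (0.068) and IER2 (0.024) turned to higher. The summed members ranged from -0.26 to -0.05 over 6 alternatives. The 8 pairs 2-fold or more lower became 3 without integration, where the cluster matched to the LGR5-rich cells held only 4 straight cells and was not compared, and 3 with the median subtracted. Pairs 2-fold or more higher numbered 5 to 8. In the LGR5-rich cells 6 genes past 2-fold became 2 with per-cell means, 2 with the median subtracted, and 0 both with the HFSC-like clusters summed and with the marker choice, the last 2 chosen after seeing the data. In the GEM-rich cells 2 genes became 1 with members left among the variable genes and 0 without integration. The cause was not tested. Without integration the matched cluster held 629 cells and shared only 175 of the 369 GEM-rich cells. Over 8 alternatives the count ranged from 0 to 3. The summed ratio kept its sign in the LGR5-rich and the GEM-rich cells, from -1.55 to -0.92 and from 0.17 to 0.90. The median coefficient between members was 0.31 at 2000 and 0.40 at 4000 UMIs per cell. All 7 genes kept a 2-fold range over clusters in 7 alternatives. No paired analysis was possible because each wool type has 1 library, and no library could be left out.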

Other observations

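Clusters with fewer than 25 cells in a library were not compared, and their values are given here without a comparison. A cluster led by LOC114117888 had 19 straight and 64 curly cells and median depths of 1852 and 1673 UMIs. It held 2083 and 262 CPM of FOS, 1898 and 218 CPM of JUN and 1192 and 148 CPM of JUNB. These curly values lay under the background limit given for levels above and are not read as expression. A small immune-like cluster of 18 and 21 cells held 615 and 1253 CPM of FOS and 1110 and 636 CPM of JUNB. A KRT2.11-rich cluster of 20 and 13 cells held 867 and 566 CPM of FOS and 1091 and 396 CPM of IER3.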
